A study of Mus musculus with 9 samples.

Results

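The Period genes Per1, Per2 and Per3 and the cryptochrome genes Cry1 and Cry2 were chosen by name as the genes of the negative limb of the mammalian circadian clock, 5 of the 20409 named genes and 6 of the 27457 RefSeq transcripts in each count table. They were measured by RNA-seq in livers of male C57BL/6J mice, for which the labels name no genetic change and no age. A fasting experiment gave 3 libraries, 1 of mice with free access to food (ad libitum), 1 of mice without food for 16 h between ZT9 and ZT1 (ZT, zeitgeber time, counted from lights on) and 1 of mice fed again for 20 h after such a fast. The other 6 came from mice kept 1 week in LD (a cycle of 12 h light and 12 h dark) and then 6 weeks in constant darkness (DD), and were taken 4 h apart between CT1 and CT21 (CT, circadian time, the phase of the free-running day). The livers of a condition were pooled into 1 library, so every condition is 1 measurement without a replicate check, and the number of animals in a pool is not given in the sources used here. When the ad libitum livers were taken is not given either. A refed group fasted over the same hours would have been taken at ZT21, so feeding and time of day cannot be told apart in these libraries.

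In the mammalian clock, the transcription factors BMAL1 (gene Arntl) and CLOCK bind E-boxes and switch on the Per and Cry genes. PER and CRY proteins accumulate, enter the nucleus together and repress BMAL1 and CLOCK, and the repression is lifted when casein kinases and ubiquitin ligases have marked the proteins for degradation. The members differ in this loop. PER1 and PER2 are scaffolds that carry CRY and kinases into the complex, PER3 is a related protein that is largely dispensable for rhythm in mice, CRY1 is the stronger and later repressor, and CRY2 is a paralogue that opposes CRY1 in setting the period. Transcription of Per1 and Per2 also answers to signals from outside the loop, such as cAMP through CREB and glucocorticoids, and feeding time is known to set the clock of the liver.

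The members lie on separate chromosomes of GRCm38. The interval of the Per1 gene is chr11:69095217-69109960 on the plus strand, in which the transcript NM_011065 (23 exons, 4671 bases of mRNA) starts at 69098948. Per2 (23 exons, 5833 bases) is at chr1:91415982-91459324, Per3 (21 exons, 5999 bases) at chr4:151003652-151044665, Cry1 (13 exons, 3026 bases) at chr10:85131700-85185064 and Cry2 (12 exons, 3976 bases) at chr2:92403646-92434043, all on the minus strand. The interval of Per3 overlaps that of Camta1 with no shared exon. Cry2 shares exon sequence with the antisense gene D930015M05Rik, and since the sources used here do not say whether strand was used in counting, reads of that stretch cannot be assigned and the level of Cry2 is uncertain to that extent. The other Per1 transcript, NM_001159367, differed from NM_011065 by 0 to 5 counts in each library, so nearly every read had been counted for both, and only NM_011065 was used.

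The promoters of 4 of the 5 members are printed here as sequence context, and a link between their letters and the peak times was not tested. RefSeq (GRCm38.p6) sequences run from 250 bases before to 50 bases after the annotated start, 5′ to 3′ on the strand of the gene, and Per2 has none in the table used here. Capitals mark the E-box CACGTG, the E-box variant CACGTT, the CRE core TGACG (the opening letters of the CREB site TGACGTCA) and the D-box TTATGTAA, each searched on both strands.
Per1, chr11:69098699-69098998, plus strand: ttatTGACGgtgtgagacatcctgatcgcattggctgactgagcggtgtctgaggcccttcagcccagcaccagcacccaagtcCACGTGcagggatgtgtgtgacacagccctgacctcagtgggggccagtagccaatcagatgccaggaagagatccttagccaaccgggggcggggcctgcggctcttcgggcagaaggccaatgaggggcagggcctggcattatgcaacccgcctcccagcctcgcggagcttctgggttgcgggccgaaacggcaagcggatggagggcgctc
Per3, chr4:151044616-151044915, minus strand: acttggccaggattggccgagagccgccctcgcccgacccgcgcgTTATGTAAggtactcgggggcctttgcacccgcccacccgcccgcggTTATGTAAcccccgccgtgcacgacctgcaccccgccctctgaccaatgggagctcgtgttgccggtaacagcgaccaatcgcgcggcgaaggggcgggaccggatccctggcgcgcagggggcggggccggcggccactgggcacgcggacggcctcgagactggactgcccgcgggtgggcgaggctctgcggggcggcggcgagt
Cry1, chr10:85185005-85185304, minus strand: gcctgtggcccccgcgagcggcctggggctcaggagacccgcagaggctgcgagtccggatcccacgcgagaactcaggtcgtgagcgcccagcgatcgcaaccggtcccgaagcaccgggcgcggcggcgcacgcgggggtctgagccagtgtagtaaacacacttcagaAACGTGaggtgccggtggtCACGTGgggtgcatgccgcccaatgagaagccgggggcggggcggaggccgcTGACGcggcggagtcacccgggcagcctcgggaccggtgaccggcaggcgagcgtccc
Cry2, chr2:92434020-92434319, minus strand: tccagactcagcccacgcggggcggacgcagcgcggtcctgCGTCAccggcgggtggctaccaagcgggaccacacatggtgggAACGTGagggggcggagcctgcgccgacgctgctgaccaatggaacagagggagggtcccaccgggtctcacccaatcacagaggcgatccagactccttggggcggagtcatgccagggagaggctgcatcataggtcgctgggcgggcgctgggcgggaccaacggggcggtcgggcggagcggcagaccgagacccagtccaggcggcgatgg

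E-boxes, the sites of BMAL1 and CLOCK, were found in the windows of Per1 (position -166 relative to the start) and Cry1 (position -60). The letters CACGTG occur in 7.15% of the 32851 promoters of the table. The variant CACGTT, held by 4.68% of promoters, was found on the reverse strand in Cry1 (position -79) and Cry2 (position -166). Per3 had neither, but held the D-box TTATGTAA, a site of the factors DBP, TEF and HLF and of the repressor NFIL3, at positions -205 and -158. One such site or more occurs in 0.938% of promoters, and 2 or more occur in 7 promoters, 0.0213% of them. The full CREB site TGACGTCA, present in 1.79% of promoters, was in none of these windows, while its core TGACG, in 20.8% of promoters, was found in the windows of Per1, Cry1 and Cry2 and also in a window at the other Per1 start (chr11:69099902-69100201). The letters AGGTCA, a site of the ROR and REV-ERB receptors that is in 16.3% of promoters, occurred in the Per1 window on the reverse strand, and TTACGTAA, another D-box (0.119%), in none. A match of letters is a description of the window and does not show that a factor binds there.

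In DD, Per1, Per2, Per3 and Cry2 were all highest at CT9, and Cry1 was highest at CT13. Values are TMM-scaled CPM (counts set against library size), and intervals are 95% intervals of the counts that cover counting error only. Total counts over genes ran from 43485652 to 59624294 per library, so that the members, with 55 to 3058 counts in a library, were measured well above the limit of detection in every one.

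Per1 stood at 2.17 CPM (CT1), 12.3 (CT5), 23.4 (CT9, interval 22.01 to 24.8), 10.4 (CT13), 4.70 (CT17) and 1.14 (CT21, interval 0.890 to 1.44). It rose and fell around a single high library, and CT9 was 20.5-fold above CT21, a log2 ratio of 4.36 (4.01 to 4.73) that was 3.43 when either of these libraries was left out. Per2 was at 6.01 CPM (CT1), 23.6 (CT5), 66.0 (CT9), 57.5 (CT13), 13.3 (CT17) and 9.13 (CT21). Its high phase thus extended over both CT9 and CT13, and the log2 ratio of CT9 to its lowest library, CT1, was 3.46 (3.29 to 3.63). Per3 stood at 1.93 CPM (CT1), 42.7 (CT5), 63.1 (CT9), 41.9 (CT13), 13.4 (CT17) and 2.89 (CT21). The levels at CT5 and CT13, on each side of its peak, did not differ beyond counting error. Per3 had the widest swing of the 5 genes, 32.7-fold between CT9 and CT1 (log2 ratio 5.03, interval 4.75 to 5.33).

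Cry1 was at 6.87 CPM (CT1), 5.92 (CT5), 17.3 (CT9), 29.9 (CT13), 25.3 (CT17) and 20.7 (CT21). It was therefore low where Per3 had already climbed, at CT5, and still high at CT21, where Per1 and Per3 were near their lowest, and the log2 ratio of CT13 to CT5 was 2.33 (2.16 to 2.51). Cry2 was at 14.7 CPM (CT1), 29.9 (CT5), 38.3 (CT9), 33.5 (CT13), 19.2 (CT17) and 19.3 (CT21). It followed the timing of the Period genes at a smaller swing, 2.60-fold between CT9 and CT1 (log2 ratio 1.38, interval 1.26 to 1.503). Of the 5 members, 4 reached a 4-fold difference between peak and nadir, against 9.3% of the 14561 genes measured, and the median log2 ratio of the 5 was 3.46 against 0.71 over all genes.

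**Figure D1:**
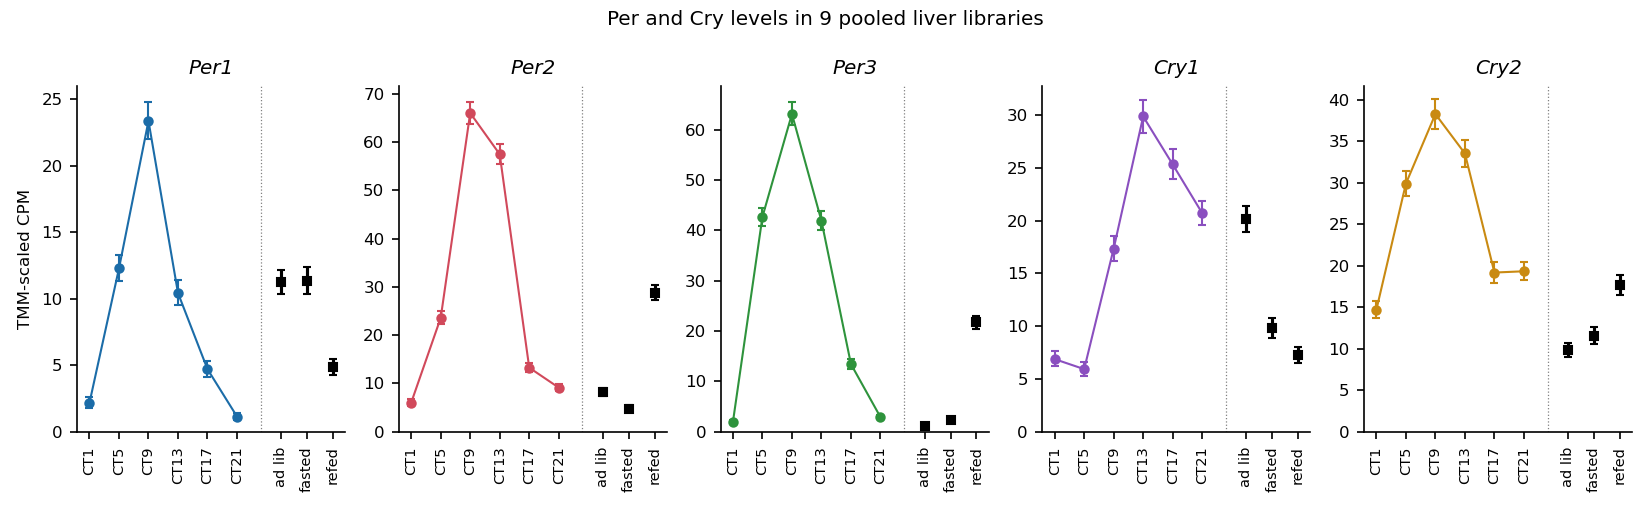
Level of each member in the 9 libraries, in TMM-scaled CPM on a linear axis that starts at 0 and differs between panels. Circles joined by lines are the 6 DD libraries by circadian time, squares are the 3 libraries of the fasting experiment, and bars are 95% exact Poisson intervals of the counts. Per1, Per2, Per3 and Cry2 were highest at CT9 and Cry1 at CT13, and Per1 in the fasted library, at 11.3 CPM, stood close to its ad libitum level of 11.2.

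A 24-h cosine was fitted to the counts with edgeR. It placed peaks at 9.46 h (Per1), 9.81 h (Cry2), 9.93 h (Per3), 10.5 h (Per2) and 15.3 h (Cry1). The peak of Cry1 was 5.83 h later than that of Per1 and 4.74 h later than that of Per2. When each DD library was left out in turn, these differences ranged from 5.05 to 6.66 h and from 4.20 to 5.30 h, so Cry1 remained last in every fit. The fitted peaks themselves ranged from 8.84 to 9.83 h for Per1, 10.3 to 11.03 h for Per2, 9.40 to 11.1 h for Per3, 9.02 to 10.4 h for Cry2 and 14.5 to 15.9 h for Cry1. The ranges of Per3 and Cry2 overlap with each other and with those of Per1 and Per2. Within every one of these fits, Per1 peaked before Per2 and Per3, and Cry2 before Per2. Without CT5 Per3 peaked after Per2, and without CT1 Cry2 peaked before Per1. Per3 peaked before Cry2 without CT17 and after it without CT5. The rest of the order of these 4 was thus not resolved.

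The log2 amplitude of the fit, which is the height of the wave above its mean, was 2.48 ± 0.47 (SE of a least-squares fit over 6 libraries) for Per3, 1.86 ± 0.21 for Per1, 1.73 ± 0.23 for Per2, 1.17 ± 0.20 for Cry1 and 0.64 ± 0.15 for Cry2. The Period genes thus had the higher amplitudes and Cry2 the lowest. In the least-squares fit Per3 departed most from its curve, lying above it by 0.93 on the log2 scale at CT5 and at -0.86 relative to it at CT1.

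**Figure D2:**
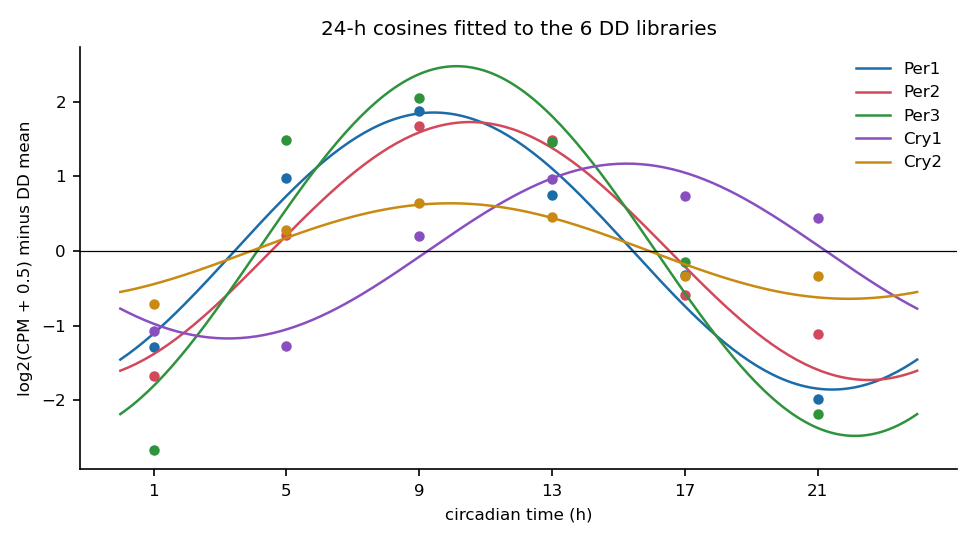
Cosines of a 24-h period fitted by least squares to the 6 DD libraries, with log2(CPM + 0.5) minus the DD mean on the vertical axis and circadian time in hours on the horizontal axis. Points are libraries and curves are fits, 1 colour per gene. The curve of Cry1 peaked at 15.3 h, after those of the other 4 genes, and Per3 had the widest curve, with an amplitude of 2.48.

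With 6 libraries and 3 residual degrees of freedom, the test of rhythm across 14021 genes passed no gene after adjustment. In edgeR's quasi-likelihood F test with Benjamini-Hochberg adjustment 0 genes were called (0%), 1286 had an unadjusted p under 0.05 (9.17%), DESeq2's likelihood ratio test called 377 of 13749 (2.74%) and limma-voom called 0. All 5 members were under 0.05 unadjusted in edgeR and all 5 were called by DESeq2. By edgeR, Per2 ranked 9 of 14021 by p (adjusted p = 0.12), Per1 ranked 15 (adjusted p = 0.13), Cry1 ranked 51 (adjusted p = 0.25), Per3 ranked 86 (adjusted p = 0.29) and Cry2 ranked 144 (adjusted p = 0.32). An exact upper-tail permutation test, which reorders the 6 libraries and counts fits at least as close, cannot go below p = 0.0167. This permutation test gave p = 0.0333 for Per1, 0.05 for Per2 and Cry1, 0.0667 for Per3 and 0.10 for Cry2, with Benjamini-Hochberg adjusted p of 0.69 to 0.76. No member was at that smallest p, which 2.45% of genes reached. Without CT21, edgeR called Per2 (adjusted p = 0.0148) and Cry1 (adjusted p = 0.0451), and over the other fits that left out 1 library no member was called.

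Within a library the ratio of 2 members does not depend on scaling, and the balance of the 2 cryptochromes turned over in the course of DD. Per kilobase of mRNA, Cry1 was at 0.614 of Cry2 (CT1), 0.260 (CT5), 0.595 (CT9), 1.17 (CT13), 1.73 (CT17) and 1.41 (CT21). Cry2 was thus the more abundant at CT1, CT5 and CT9 and Cry1 the more abundant in the other 3, each difference beyond counting error. At CT13 this order rests on the mRNA lengths, as Cry1 had 1445 counts and Cry2 1623. The uncertainty of Cry2 from its antisense gene applies to each of these ratios. Among the Period genes, Per1 stayed below Per2 per kilobase in all 6 DD libraries, at 0.156 (CT21) to 0.651 (CT5) of Per2. Per3 exceeded Per2 at CT5 (1.76), where both were above their CT1 levels, fell short of it at CT9 (0.930) and CT13 (0.709), and did not differ from it beyond counting error at CT17 (0.984).

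Arntl, the activator gene of the loop, ran against the Period genes, at 34.2 CPM at CT21 and 1.54 CPM at CT5 (log2 ratio 4.47, interval 4.15 to 4.81). Per kilobase, Per2 was at 8.56 of Arntl at CT9 and at 0.133 at CT21, and Per1 was at 3.79 and 0.0207. Cry1 held the narrowest span of the 5 against Arntl, from 4.34 at CT9 to 0.336 at CT1.

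The 3 Period genes differed in their order over the ad libitum, fasted and refed libraries. The ad libitum library is the baseline of both comparisons, so their values share its error. Per1 was at 11.2 CPM ad libitum, 11.3 fasted and 4.83 refed. It did not differ between ad libitum and fasted beyond counting error (log2 ratio 0.01, interval -0.16 to 0.19), and was lower in the refed library (log2 ratio -1.22, interval -1.44 to -0.996). Per2 was at 8.17, 4.77 and 28.8 CPM in the same order. It was thus lowest in the fasted library (log2 ratio -0.78, interval -1.02 to -0.53) and highest in the refed one (1.81, interval 1.66 to 1.98). Per3 was at 1.07, 2.32 and 21.7 CPM, on 55, 101 and 1043 counts. Its rise from ad libitum was 2.18-fold in the fasted library (log2 ratio 1.12, interval 0.63 to 1.62) and 20.4-fold in the refed library (4.35, interval 3.96 to 4.77).

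The cryptochromes changed in opposite directions. Cry1 was at 20.1 CPM ad libitum, 9.82 fasted and 7.25 refed, with log2 ratios to ad libitum of -1.03 (interval -1.20 to -0.87) and -1.47 (-1.65 to -1.30). Cry2 was at 9.80, 11.5 and 17.7 CPM, with log2 ratios of 0.23 (0.05 to 0.41) and 0.85 (0.69 to 1.01). Between refed and fasted, the log2 ratio was -1.23 for Per1, 2.59 for Per2, 3.23 for Per3, -0.44 for Cry1 and 0.62 for Cry2. Against CT21, the DD library of that ZT21 time, the refed library was at 2.08 for Per1 (interval 1.70 to 2.49), 1.66 for Per2, 2.91 for Per3, -1.51 for Cry1 and -0.13 for Cry2 (-0.26 to -0.0028). Per1, lower in the refed library than ad libitum, was thus 4.24-fold higher in it than at CT21, and Cry2 also turned. Within the fasting experiment, the refed library held more Per2, Per3 and Cry2 transcript and less Per1 and Cry1 than either of the other 2 libraries. In bulk tissue, fewer cells that express a gene and less RNA per cell cannot be told apart.

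**Figure D3:**
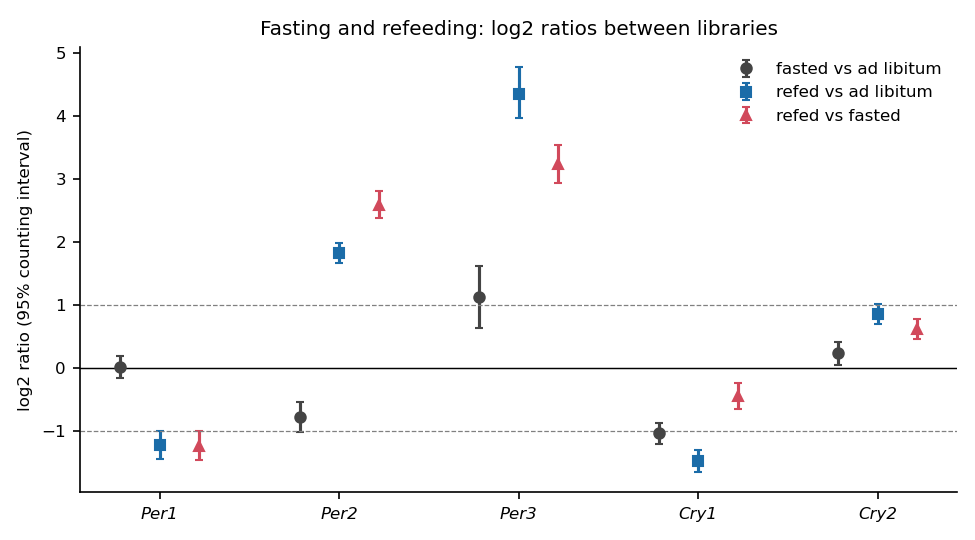
Log2 ratios of the 5 members between the 3 libraries of the fasting experiment, with exact 95% counting intervals as bars. The solid line is at 0 and the broken lines are at a 2-fold difference. Per2 and Per3 lay above 1 in both comparisons of the refed library, at 1.81 to 4.35, while Per1 lay at -1.22 and -1.23.

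Counted by a 2-fold difference, 1 member was higher (Per3) and 1 lower (Cry1) in the fasted than in the ad libitum library, where 11.1% of 14412 genes were higher and 9.47% lower. In refed against ad libitum, 2 members were higher (Per2, Per3) and 2 lower (Per1, Cry1), against 7.71% and 7.82% of 14026 genes. In refed against fasted, 2 were higher (Per2, Per3) and 1 lower (Per1), against 6.21% and 8.39% of 14321 genes. The medians of the members were 0.01, 0.85 and 0.62 in the 3 comparisons, and those of all genes were -0.05, -0.03 and 0.04. Cry1 sat close to the 2-fold line in the fasted library, and with DESeq2 size factors or total counts 1 member was past it. With CT1, the DD library nearest to the ZT1 harvest of the fasted mice, as baseline in place of ad libitum, Per1 was the member past the line, 5.23-fold higher in the fasted library (log2 ratio 2.39, interval 2.09 to 2.69), and Per3 was at 0.26 (-0.14 to 0.67) and Cry1 at 0.52 (0.31 to 0.72).

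Set against the range of the DD libraries, the fed and fasted libraries fell outside it in 4 of 10 values. Per3 was below every DD library in the ad libitum library, Per2 was below every one in the fasted library, and Cry2 was below all 6 in both. In the refed library all 5 members lay within the DD range. Over the 5 members together, the ad libitum and fasted libraries were nearest to each other (root mean square log2 difference 0.676), and CT1 was the DD library nearest to each of them, at 1.24 from ad libitum and 1.01 from fasted. The refed library was nearest to CT5, at 0.802. Over 11001 genes the order was another: ad libitum and fasted were the farthest apart of all pairs (0.837), ad libitum was nearest to CT1 (0.428) and refed to CT21 (0.476). These distances describe single libraries, and the 2 experiments also differ in lighting.

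The ratio of Per1 to Per2 separated the ad libitum and fasted libraries from the remaining 7. Per kilobase, Per1 was at 1.72 of Per2 in the ad libitum library (log2 ratio 0.78, interval 0.60 to 0.96) and at 2.97 in the fasted library (1.57, interval 1.33 to 1.81). In the refed library it was at 0.210, a value between those of the DD libraries. The Cry1 to Cry2 ratio fell in the order ad libitum (2.70), fasted (1.12) and refed (0.539), and in the fasted library the cryptochromes did not differ beyond counting error. Per3 to Per2 ran the other way, at 0.127, 0.472 and 0.734.

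**Figure D4:**
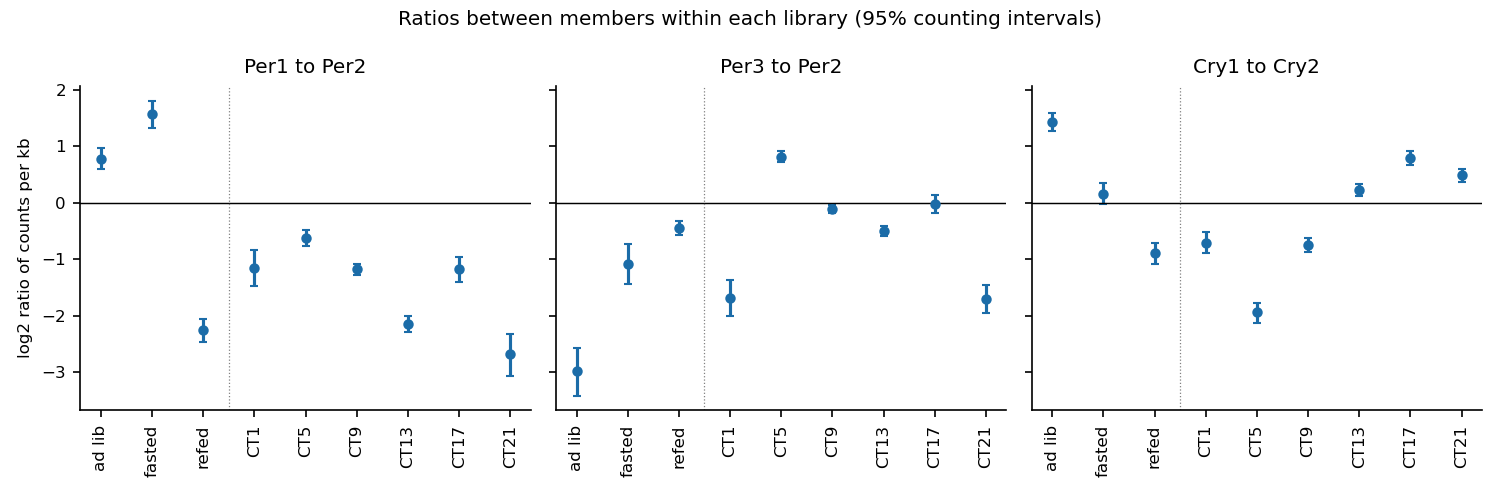
Log2 ratios per kilobase between members of the same library, which do not depend on the scaling between libraries, for Per1 to Per2, Per3 to Per2 and Cry1 to Cry2. Bars are exact 95% counting intervals, and the dotted line divides the fasting experiment from the DD series. Per1 exceeded Per2 in the ad libitum (0.78) and fasted (1.57) libraries and in no other, and Cry1 to Cry2 changed sign between CT9 and CT13.

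Libraries also differed in genes that the design does not address. A list of 30 acute phase genes, most of them for secreted proteins of the inflamed liver, held 25.03% of counts ad libitum, 15.4% in the CT1 library and 14.9% in the CT17 library, and 2.14% to 4.95% in the remaining 6. Neutrophil markers moved with them: 9 of 10 were found, all 9 were at least 2-fold lower in the fasted than in the ad libitum library, and their summed level was 103 CPM ad libitum, 58.6 in CT1 and 67.5 in CT17, with 1.55 to 7.38 elsewhere. Camp was at 0 in the fasted, CT5 and CT13 libraries, Ngp, Mpo and Mmp8 at CT9 and Mpo at CT21. The 5 cholangiocyte markers summed to 463 CPM ad libitum, 196 in CT1 and 241 in CT17, with 42.4 to 80.5 elsewhere. Spp1 alone made up 226 CPM of the CT17 sum, so the sum does not stand for the list. In the refed library 3 of the 5 (Krt19, Krt7 and Epcam) were at least 2-fold above ad libitum and 2 below, against 7.71% and 7.82% of all genes. Of 6 T and B cell markers, 5 were at least 2-fold higher in the fasted library, at summed levels of 1.28 to 3.81 CPM over the 9 libraries. The hepatocyte markers of the labelled tissue were present in every library, at 4.35% (ad libitum) to 11.1% (CT13) of counts. The ad libitum library is the baseline of the fasted and refed ratios, and the part of this difference in the members' ratios was not tested. In DD, Per2, Per3 and Cry2 had their nadir at CT1, while Per1 had it at CT21 and Cry1 at CT5. Without CT1, the log2 ratio of peak to nadir was 2.85 for Per2, 4.45 for Per3 and 0.997 for Cry2, it was as before for Per1 and Cry1, and the fitted peaks were at 9.31 h (Per1), 10.3 h (Per2), 9.40 h (Per3), 15.4 h (Cry1) and 9.02 h (Cry2). Without both CT1 and CT17 the ratios of Per2, Per3 and Cry2 were 2.85, 4.45 and 0.99.

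The proteins that modify and degrade PER and CRY are encoded by genes that were mostly flat in DD. Of 29 such genes, among them casein kinases, Btrc, which encodes an F-box protein that marks PER, and phosphatases, 1 reached a 4-fold difference between peak and nadir, against 9.3% of all genes, and the median log2 ratio was 0.40 against 0.71 over all genes. The exception was Usp2, a deubiquitinase known to act on PER1 and CRY1. It stood at 0.845 CPM (CT1), 14.6 (CT5), 32.8 (CT9), 18.1 (CT13), 5.11 (CT17) and 1.12 (CT21), so that it was highest in the same library as the Period genes (log2 ratio 5.28, fitted peak 10.002 h, edgeR adjusted p = 0.16). It also rose from 1.32 CPM ad libitum to 3.63 fasted and 6.91 refed. In the refed library 3 of the 29 genes were at least 2-fold above ad libitum, a number near the 7.71% of all genes. They were Usp2 (log2 ratio 2.39), Skp1 (1.06), a subunit of the ubiquitin ligase that holds the F-box proteins, and Dtl (1.64, on 21 and 61 counts), the substrate receptor of another ligase, and none was lower.

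Of 13 genes of the second loop and of clock output, 11 reached a 4-fold difference in DD, against 9.3% of all genes. Among the 11 was Rorb, at no more than 0.239 CPM in DD and at 0 at CT5, CT9 and CT13, so its ratio used a floor of 3 counts. In the fasted library 7 of them were at least 2-fold higher than ad libitum and 2 lower, against 11.1% and 9.47% of all genes. Dbp, the activator of D-box genes, had log2 ratios of 2.49 fasted and 5.16 refed, and Nfil3, the repressor at the same sites, had -1.08 and -2.65. Per3, whose window held 2 D-box matches, had 1.12 and 4.35, and a link to Dbp or Nfil3 was not tested. Among the 4 activator genes, Arntl and Npas2, a partner of BMAL1 that can stand in for CLOCK, reached 4-fold, and Arntl had log2 ratios of -0.39 fasted and -2.21 refed.

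Inputs from outside the loop were read from lists of genes that answer to the same signals. Of 10 genes of glucocorticoid and heat shock input, 3 reached a 4-fold difference in DD, against 9.3% of all genes, Zbtb16 (log2 ratio 2.75), Fkbp5 (2.65) and Dusp1 (2.34), all with their highest level at CT9. In the fasted library 2 of the 10 were at least 2-fold higher and 1 lower, against 11.1% and 9.47% of all genes. Fkbp5, which encodes a chaperone partner of the glucocorticoid receptor and is induced by it, stood at 48.8 CPM ad libitum, 50.6 fasted and 19.8 refed. It did not differ between ad libitum and fasted beyond counting error (log2 ratio 0.05, interval -0.03 to 0.13) and was lower in the refed library (-1.31). Sik1, a kinase gene induced by cAMP, stood at 17.3 CPM ad libitum, 38.4 fasted and 11.6 refed. Per1 did not differ between ad libitum and fasted beyond counting error, but was 5.23-fold higher in the fasted library than at CT1. A link between Sik1 and Per1 was not tested. Among 14 genes of cAMP input, 13 of them with enough counts, 3 were at least 2-fold higher in the fasted library and 0 lower, against 11.1% and 9.47% of all genes. One reached 4-fold in DD, near the 9.3% of all genes, namely Nr4a2, at no more than 0.269 CPM. Of 11 immediate early genes, 10 of them with enough counts, 4 were lower in the fasted library and 0 higher, against 9.47% and 11.1% of all genes, and 4 reached 4-fold in DD, against 9.3%.

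Angptl8, a secreted protein of the fed liver that the study centres on, stood at 45.6 CPM ad libitum, 4.38 fasted and 54.2 refed. Its log2 ratio to ad libitum was -3.38 fasted (interval -3.60 to -3.16) and 0.25 refed, while that of Per1 was 0.01 and -1.22. In DD, Angptl8 was highest at CT9 (193 CPM) and lowest at CT1 (29.8 CPM), with its second highest level at CT17 (115 CPM), where Per1 was at 4.70 CPM. A link between Angptl8 and Per1 was not tested, and the refed library, taken after 20 h of feeding, does not show an early response. Pirb, the gene of the receptor the study names, was at 12.7 CPM ad libitum, 6.59 fasted and 4.997 refed and at 4.05 to 9.003 CPM in DD, with its higher DD levels at CT1 and CT17.

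The genes whose patterns were most like those of the members were found by Pearson correlation of log2 CPM over the 9 libraries among 11001 genes, and the points share depth and libraries. For Per3 they were Zc3h8 (r = 0.990), Wee1 (0.980) and Tef (0.969). Wee1, a kinase that holds back entry into mitosis, stood at 0.833 CPM ad libitum, 1.88 fasted and 10.2 refed and at 1.51 to 21.2 in DD. For Cry2 they were Uvrag (0.978), Cux1 (0.971) and Fech (0.967), the enzyme that completes haem. For Per1 they were Nufip2 (0.967), Dcun1d3 (0.916) and Zbtb11 (0.913), for Per2 Socs4 (0.953), Serpina6 (0.946) and Homer2 (0.945), and for Cry1 Zscan20 (0.924), Zfp36l1 (0.924) and Zfp40 (0.906). Serpina6 encodes the carrier of corticosteroids in blood, and stood at 63.5 CPM ad libitum, 33.1 fasted and 112 refed. No member was among the 3 genes nearest to another member over the 9 libraries, and Per1 and Per2 had r = 0.50. Over the 6 DD libraries alone Per1 and Per2 had r = 0.90, Per1 and Per3 0.96 and Per2 and Cry2 0.97, while Cry1 had 0.02 to 0.36 with the other 4. The nearest genes depended on the libraries used: over DD alone, 2 of the 3 named for Per3 were again among the nearest 3, 1 of 3 for Per1, and 0 of 3 for Per2, Cry1 and Cry2.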

How the data were processed

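Reads of 9 pooled polyA+ liver libraries (paired, 150 bases) were mapped by the authors to GRCm38/mm10, for which the submitters' processing notes list TopHat2 2.0.13. The authors deposited whole-number counts per RefSeq transcript. How reads were counted, and whether by strand, is not given in the sources used here. Of 27457 transcripts, 26386 were named from RefSeq and 119 from GENCODE. The 952 without a name (0.346% to 0.817% of counts) were left out. The transcript with the highest total represented each of 20409 genes, since 3734 genes had 2 or more. Counts were scaled by TMM (edgeR 4.0.16, R 4.3.3). Ratios between libraries have exact binomial 95% intervals, levels have exact Poisson ones, and both cover counting error only. A comparison used genes with at least 10 counts in either library, and had no test, as each condition has 1 library. Rhythm was tested by edgeR's quasi-likelihood F test of a 24-h cosine and sine (filterByExpr, minimum count 10, adjusted p under 0.05), DESeq2 1.42.0, limma 3.58.1 and an exact permutation over 720 orders, 60 of them distinct, of a cosine fitted to log2(CPM + 0.5). The rhythm fits were tested on simulated data. Patterns were compared over genes with a mean of at least 100 counts. The text names the 5 members, the 3 nearest genes of each and genes of fixed lists. Members and lists were chosen with earlier results of these data known. Other steps used Python 3.11.15 with matplotlib 3.10.9, pandas 2.3.3, scipy 1.17.1 and numpy 2.4.6.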

Additional observations from a re-analysis of the deposited data

How the results depend on the processing

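The number of members at least 2-fold different between fasted and ad libitum fell from 2 to 1 with DESeq2 size factors, with total counts and with CT1 as baseline, and that between refed and ad libitum fell from 4 to 1 with the mean of the 6 DD libraries as baseline. Signs of called members turned with the baseline, to -2.62 for Per3 in the fasted library against the DD mean, and against CT1 to 0.52 for Cry1 in the fasted library, 1.16 for Per1 and 0.077 for Cry1 in the refed library. Among values under 2-fold, unscaled counts gave fasted log2 ratios of -0.23 for Per1 and -0.01 for Cry2. Cry2 also turned with the baseline, in the fasted library to -0.35 against CT1 and -1.08 against the DD mean. In the refed library it was at -0.46 against the DD mean. In DD, rhythmic genes went from 0 to 377 and members called from 0 to 5 with DESeq2's likelihood ratio test. Leaving out 1 library gave 0 (4 of the 6 fits) to 32 genes, 1 without CT1 and 32 without CT21, and 0 to 2 members, 2 without CT21. A cosine fitted to linear CPM took the members with an unadjusted exact permutation p under 0.05 from 1 to 2. Each count of calls kept its value to within 1.5 times in the other 45 runs. Of the values of single genes, 157 were the same, 41 moved beyond counting error, 8 passed a threshold they had missed and 4 turned. Those 4 were at least 2-fold in the main run, and sign changes of smaller values were counted as moved. For 4 of the 5 members, at most 1 of the 3 nearest genes was again among the nearest 3 over DD alone. For Per3, 2 of the 3 were. No paired analysis was possible because each condition has 1 library. Intervals cover counting error only, and differences between animals, pools and library preparations were not measured.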
